A study of Homo sapiens with 6 samples.

Results

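The 146 RNAs described here are the named antisense RNAs that AGS cells carried at a mean of at least 1 FPKM (fragments per kilobase of exon, scaled to the depth of the library). AGS is a human gastric adenocarcinoma line. The members were every row of the deposited gene table whose name ended in -AS and a digit, of 1221 such rows among 58735 genes in all. Of the 1221 rows, 819 had a value above 0 in some library and 148 reached the level, of which the rule set 2 aside. The members were thus chosen by name and by mean FPKM, and their levels are a description: SLC5A4-AS1 and PSPC1-AS2, each at 1.01 FPKM, lay just inside, and ZNF213-AS1 at 1.00 (below the level before rounding) and HOXB-AS2 at 0.994 lay just outside. The mean was taken over both groups, and 125 members reached 1 FPKM in each group, 6 passed only through the controls and 15 only through the knockdown.

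The groups were wild-type AGS cells given a small interfering RNA against RBM8A (siRBM8A, 3 libraries) and wild-type AGS cells given the control siRNA (siNC, 3 libraries). All 6 cultures were transfected with Lipofectamine 2000 and harvested after 48 h, and the labels call the libraries of a group biological replicates and give them a single batch. Libraries were made from poly-A RNA, so antisense transcripts without a poly-A tail were not measured. The labels name 1 siRNA per group, and cells were not sorted, so fewer cells of a state and less RNA per cell cannot be told apart.

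An antisense RNA is transcribed from the strand opposite to a neighbouring gene, most often a protein-coding one, after which it is named. Some overlap exons of that gene, some start beside its promoter and run the other way, and a few only bear its name. RBM8A, also called Y14, is a core subunit of the exon junction complex, which the splicing machinery leaves on RNA a short way upstream of each exon-exon junction. The complex marks spliced RNAs for export, localization and, where a stop codon lies far upstream of a junction, nonsense-mediated decay, and long non-coding RNAs with introns carry it as well.

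Of the 10 antisense RNAs that changed, 8 are spliced. The exon end where the complex is laid down is shown for 7 of them, because exon junction complexes are generally laid down there. Binding to these RNAs was not measured. Each line holds the last 40 bases of an exon, 5′ to 3′, with positions 24 to 20 before the junction in capitals. They are from GENCODE 29 transcripts on GRCh38. The exon shown was the first, in the longest transcript that had one, whose last 40 bases overlapped no exon of another gene.
IGFL2-AS1, chr19:46202840-46202879, minus strand, exon 1 of 3: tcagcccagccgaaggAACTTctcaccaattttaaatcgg
LENG8-AS1, chr19:54448562-54448601, minus strand, exon 1 of 3: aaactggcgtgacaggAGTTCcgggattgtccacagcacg
FARSA-AS1, chr19:12932998-12933037, plus strand, exon 2 of 3: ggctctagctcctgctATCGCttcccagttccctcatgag
SEMA3B-AS1, chr3:50267281-50267320, minus strand, exon 1 of 2: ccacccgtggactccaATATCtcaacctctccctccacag
GPR50-AS1, chrX:151177377-151177416, minus strand, exon 1 of 3: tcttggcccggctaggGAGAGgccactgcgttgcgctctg
SRP54-AS1, chr14:34969170-34969209, minus strand, exon 2 of 6: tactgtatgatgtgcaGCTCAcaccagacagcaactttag
C1RL-AS1, chr12:7108908-7108947, plus strand, exon 2 of 12: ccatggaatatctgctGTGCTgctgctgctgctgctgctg

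PAXIP1-AS1 and NCBP2-AS2 have a single exon and so no junction. They, with SEMA3B-AS1, start beside their sense gene and run away from it, and the bases between the 2 start sites are shown because both genes of a pair are read out from there. Bases are from RefSeq promoters on GRCh38.p14, on the strand given, with CCAAT boxes (CCAAT, or ATTGG on the other strand) and GC boxes (GGGCGG, or CCGCCC) in capitals. PAXIP1-AS1 is listed there under its current symbol, PAXIP1-DT, and the 250 bases before its RefSeq start are shown, of 363 between the GENCODE starts of the pair.
PAXIP1-AS1 and PAXIP1, chr7:155003183-155003432, plus strand: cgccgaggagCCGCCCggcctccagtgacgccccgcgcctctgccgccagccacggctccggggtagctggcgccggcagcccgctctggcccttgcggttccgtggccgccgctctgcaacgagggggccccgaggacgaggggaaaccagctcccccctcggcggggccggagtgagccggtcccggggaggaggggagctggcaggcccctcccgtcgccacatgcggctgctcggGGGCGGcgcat
SEMA3B-AS1 and SEMA3B, chr3:50267372-50267557, minus strand: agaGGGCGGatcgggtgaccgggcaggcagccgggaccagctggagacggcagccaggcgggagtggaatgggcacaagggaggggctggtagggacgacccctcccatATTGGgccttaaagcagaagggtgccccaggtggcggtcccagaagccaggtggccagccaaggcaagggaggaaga
NCBP2-AS2 and NCBP2, chr3:196942598-196942622, plus strand: ggacCCAATccgaGGGCGGcgtgtc

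All 3 stretches hold a GC box, which 42.6%, 39.3% and 9.66% of the 35116 RefSeq promoters also hold within as many bases (250, 186 and 25). The SEMA3B and NCBP2 stretches hold a CCAAT box, found in 26.7% and 2.47% of promoters at those lengths. The TATA box (TATAAA), the core bound by ETS factors (CCGGAAG) and the core of the amino acid response element (TGATGNAA) were searched on both strands and were in none of the 3. Of the 146 members, 103 were in the promoter table by name or by current symbol.

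Most of the antisense RNAs were scarce. Their mean level had a median of 2.04 FPKM, against 6.63 for the 12678 genes tested, and ran from 1.01 to 50.3. Only 21 reached 5 FPKM and 5 reached 10: IGFL2-AS1 (50.3), NCBP2-AS2, HOXB-AS3, VPS9D1-AS1 and FGD5-AS1. They were also short, with a median of 1820 exon bases against 4334 for all tested genes and at most 3 exons in the median member against 8. The median member had 388 fragments over the 6 libraries, and 17 had fewer than 100. None was at 0 in any library, where 3 fragments at the median member length stand for 0.0971 to 0.108 FPKM.

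The library depth was 14838527 to 16561306 fragments assigned to genes. The knockdown held in every library: RBM8A was 14.4 ± 1.08 FPKM in siNC and 2.95 ± 0.630 in siRBM8A (SD, n = 3 each), or 20.5% of the control, a log2 fold change of -1.97 (limma adjusted p = 0.00544, and 0.0544 without siRBM8A replicate 3). All 7 gastric epithelial markers were present, and markers of blood, endothelium, liver and nerve stayed under 1 FPKM, with PTPRC, APOB and SNAP25 at 0. Of 4 fibroblast markers, DCN and LUM were at 0 and COL1A1 was at 3.90 FPKM. Libraries of a group differed by more than sampling noise in every pair, and siNC replicate 2 and siRBM8A replicate 2 stood apart from their groups in the same direction, and lay farthest from the group median for 66 and 63 of the 146 members.

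Antisense RNAs rose more often than they fell when RBM8A was depleted. By limma on log2(FPKM + 1), with p adjusted over all 12678 genes and called under 0.05, 9 of 146 were higher in siRBM8A and 1 was lower. That is 6.16% and 0.685% of the members, beside 2.41% and 3.19% of all genes tested (5.59% in either direction; 305 and 404 genes, or 468 and 325 with libraries scaled to equal FPKM sums, where 15 members were higher and 1 lower). Summed over the members, FPKM was 433 to 444 in the 3 siNC libraries and 544 to 556 in the 3 siRBM8A libraries, and the groups did not overlap. IGFL2-AS1 and NCBP2-AS2, the most abundant members, carried much of that difference, and without them the sums were 378 to 388 and 441 to 448. The median log2 fold change was 0.11 (quartiles -0.12 and 0.40) against -0.01 for all genes (quartiles -0.23 and 0.19), and 91 members (62.3%) lay above 0, against 48.6% of all genes. Of the 125 members at 1 FPKM in each group, 7 were called higher and 0 lower, with a median of 0.10. Adding 1 to each value understates the fold of the scarcest.

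Same-numbered libraries deviated together for numbers 1 and 2 (r = 0.507 and 0.663) and only weakly for number 3 (0.102). The fit with replicate number as a block is therefore given beside the unpaired one. With the block, 40 members were called higher and 12 lower, 27.4% and 8.22%, against 18.9% and 21.3% of all genes. All 10 unpaired calls were among them. In 40 members every siRBM8A library lay above every siNC library and in 10 every one lay below, against 14.8% and 16.5% of all genes. These and the block counts did not leave out the 15 members passing the level only through siRBM8A or the 6 only through siNC. For those members the rule itself favours the group that carried them past the level. The unpaired counts rested on few libraries: without siNC replicate 1, siNC replicate 3 or siRBM8A replicate 3 the number called higher was 1, 0 and 0, and over all genes it fell from 305 to 7, 6 and 2 (69 without siNC replicate 2 and 182 without siRBM8A replicate 1). Leaving out both replicates numbered 2 gave 16 higher and 1 lower.

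**Figure D1:**
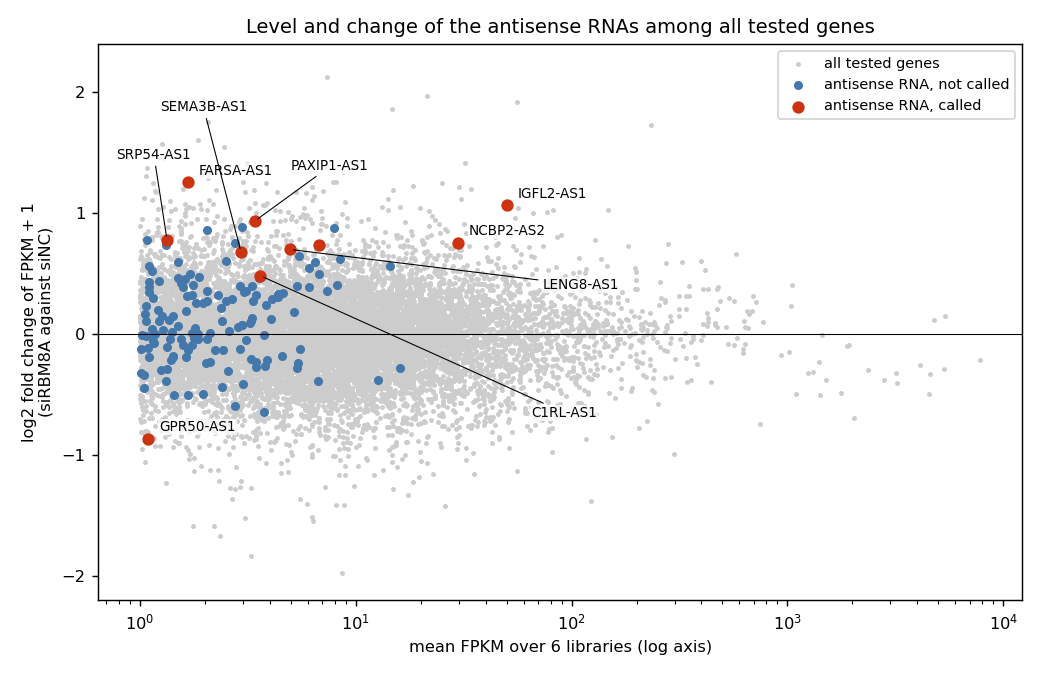
Mean FPKM over 6 libraries (log axis) against the log2 fold change of FPKM + 1 in siRBM8A against siNC, for the 12678 tested genes (grey), the antisense RNAs not called (blue) and the 10 called (red). The antisense RNAs sit at the low end of the expression range, and 9 of the 10 called lie above 0, IGFL2-AS1 farthest to the right.

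IGFL2-AS1 was the most abundant antisense RNA and the one with the smallest adjusted p. It read 37.2, 30.2 and 29.2 FPKM in siNC and 70.6, 67.0 and 67.5 in siRBM8A. The groups were far apart, a 2.12-fold rise resting on 2782 and 5799 fragments (log2 fold change 1.07, SE 0.116, adjusted p = 0.0108). IGFL2, a secreted insulin growth factor-like protein, moved the other way: 54.1, 66.9 and 57.6 FPKM in siNC and 28.2, 36.3 and 33.3 in siRBM8A (-0.85, adjusted p = 0.0220). These genes lie side by side on chromosome 19, IGFL2 at 46143106 to 46161299 on the plus strand and IGFL2-AS1 at 46189166 to 46203083 on the minus strand, and share no base. In the siNC libraries IGFL2 was the higher of the pair in FPKM, and in the siRBM8A libraries IGFL2-AS1 was. IGFL2-AS1 was the only member still called without siNC replicate 1, and none was called without siNC replicate 3 or siRBM8A replicate 3.

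**Figure D2:**
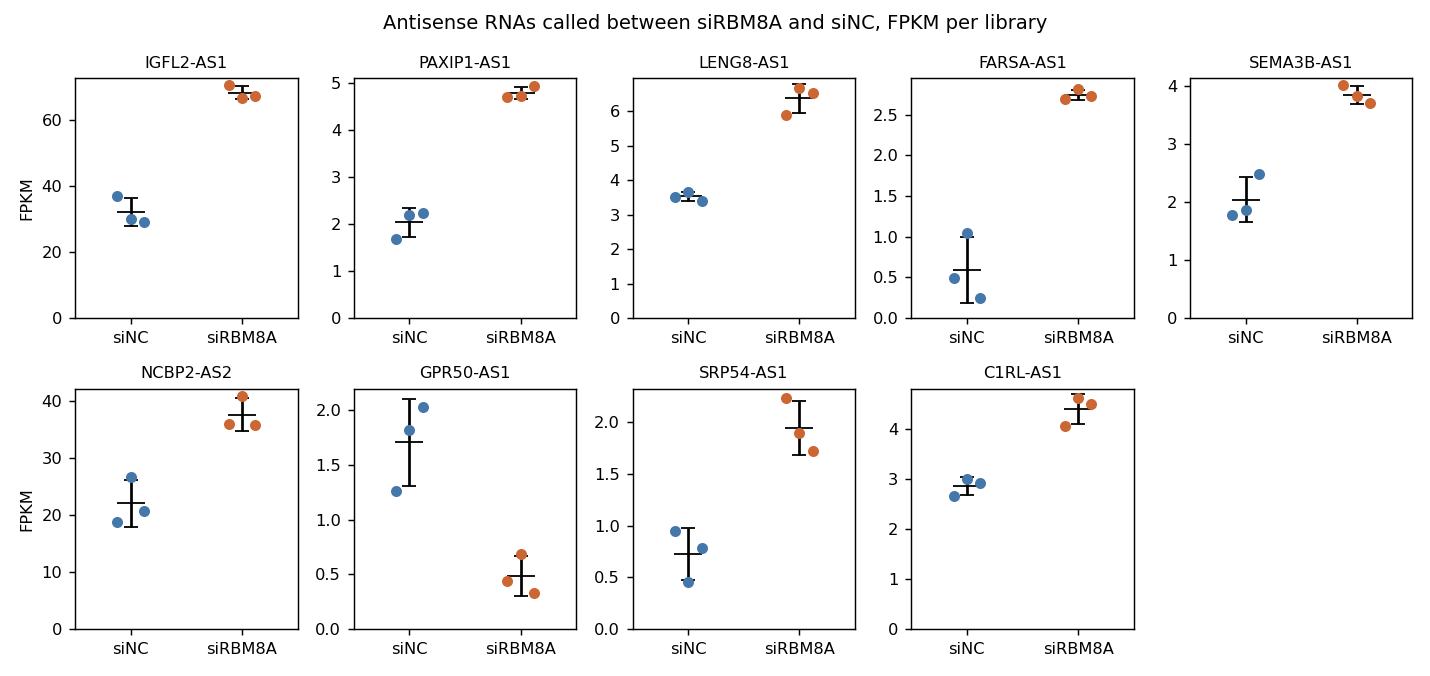
FPKM in each library (points) of 9 of the 10 called antisense RNAs, siNC in blue and siRBM8A in orange, with the mean and SD (n = 3) in black and each axis from 0. The groups do not overlap in any panel, and GPR50-AS1 is the only one lower in siRBM8A.

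Of 17 members that start within 1000 bases of their sense gene and share no exon base with it, head to head, 4 rose and none fell. PAXIP1-AS1 read 1.68, 2.20 and 2.23 FPKM in siNC and 4.70, 4.73 and 4.93 in siRBM8A. It was 2.35-fold higher with no overlap (0.94, SE 0.112, adjusted p = 0.0116). PAXIP1, an adaptor of DNA damage response and histone methylation complexes, was 1.39-fold higher and missed the threshold (0.36, adjusted p = 0.0787; 0.0129 with the block). NCBP2-AS2, which the annotation lists as protein coding in spite of its name, read 18.7, 26.6 and 20.7 FPKM in siNC and 36.0, 40.9 and 35.8 in siRBM8A. It was 1.71-fold higher (0.76, SE 0.144, adjusted p = 0.0355). That call was lost with the filter at 0.1 FPKM or with none, and with any single library left out other than siNC replicate 2. NCBP2, the small subunit of the nuclear cap-binding complex, overlapped between groups at 17.7 ± 2.02 and 18.9 ± 3.28 (0.08, adjusted p = 0.769). The start sites of these genes are 26 bases apart.

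SEMA3B-AS1 read 1.78, 1.86 and 2.48 FPKM in siNC and 4.01, 3.83 and 3.70 in siRBM8A, on 34 and 63 fragments. It was 1.89-fold higher (0.68, adjusted p = 0.0310), a call lost by limma-voom on fragments (0.0989, and 0.0626 with the block). The call was also lost with the filter at 0.1 FPKM or with none. So it was with any single library left out other than siRBM8A replicate 2. SEMA3B, a secreted axon guidance protein, overlapped between groups at 52.8 ± 8.33 and 57.5 ± 13.3 FPKM. SRP54-AS1, an annotated unitary pseudogene, read 0.943, 0.451 and 0.782 in siNC and 2.23, 1.89 and 1.72 in siRBM8A. It was 2.69-fold higher (0.78, adjusted p = 0.0394), passed the level only through siRBM8A and rested on 55 and 145 fragments. That call was lost with 0.1 added in place of 1 (adjusted p = 0.0535) and with any single library left out (0.0639 to 0.165). SRP54, the signal recognition particle subunit that binds signal peptides, read 34.7, 26.3 and 33.5 in siNC against 26.8, 16.6 and 22.8. Its groups overlapped, and it was not called without the block (-0.51, adjusted p = 0.156) and was with it (0.00447).

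Of the 93 members that share exon bases with their sense gene, 4 rose and 1 fell. LENG8-AS1 read 3.52, 3.67 and 3.40 FPKM in siNC and 5.90, 6.67 and 6.54 in siRBM8A, 1.80-fold higher (0.70, SE 0.0927, adjusted p = 0.0152). C1RL-AS1 read 2.65, 2.99 and 2.92 in siNC and 4.05, 4.62 and 4.49 in siRBM8A, 1.54-fold higher (0.48, adjusted p = 0.0417). In neither did the groups overlap. The C1RL-AS1 call was lost with any single library left out, and with the filter at 0.1 FPKM or with none. C1RL, a serine protease related to complement C1r, was 1.41-fold higher and not called (0.40, adjusted p = 0.0999; 0.0180 with the block). LENG8 was at 86.8 ± 13.7 and 110 ± 24.8 FPKM, with overlapping groups (0.33, adjusted p = 0.312; 0.00849 with the block).

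FARSA-AS1 had the largest fitted change, 1.26, on the fewest fragments of the 10. It read 0.499, 1.04 and 0.248 FPKM in siNC and 2.69, 2.81 and 2.73 in siRBM8A, which were 2, 4 and 1 fragments against 11, 11 and 10. The groups did not overlap (adjusted p = 0.0214), and the ratio of fragments, set to equal depth, was 4.76 with an exact 95% interval of 2.06 to 12.8 that covers counting error only. It passed the level only through siRBM8A. Its annotated exons span 241 bases, 25 of them shared with FARSA, the alpha subunit of phenylalanyl-tRNA synthetase. FARSA was at 48.6 ± 10.3 and 53.2 ± 12.1 FPKM (0.13, adjusted p = 0.736).

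GPR50-AS1 was the member that fell. It read 1.26, 1.82 and 2.03 FPKM in siNC and 0.436, 0.685 and 0.325 in siRBM8A, on 136 and 38 fragments. Without overlap, it was at 0.283 times the control (-0.86, SE 0.170, adjusted p = 0.0378). GPR50, an orphan receptor related to the melatonin receptors, fell beside it from 2.37, 2.19 and 2.82 to 0.785, 1.04 and 0.607 (-0.94, adjusted p = 0.0215). These genes cross at their 5′ ends on chromosome X and share 81 exon bases. Both had a mean under 1 FPKM after knockdown, and GPR50-AS1 passed the level only through siNC. GPR50-AS1 was no longer called with any single library left out other than siRBM8A replicate 2.

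No source used here states whether counting used strand, so reads from bases that a member shares with a gene on the opposite strand cannot be assigned to one of the pair, and values of such members are uncertain to that extent. Of the 146 members, 105 share at least 1 exon base with an opposite gene, 26 share over 25% and the highest share was 67.8%. Of the 41 that share none, 4 rose and none fell, with a median of 0.03, against 5 and 1 of the 105, with a median of 0.15.

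**Figure D3:**
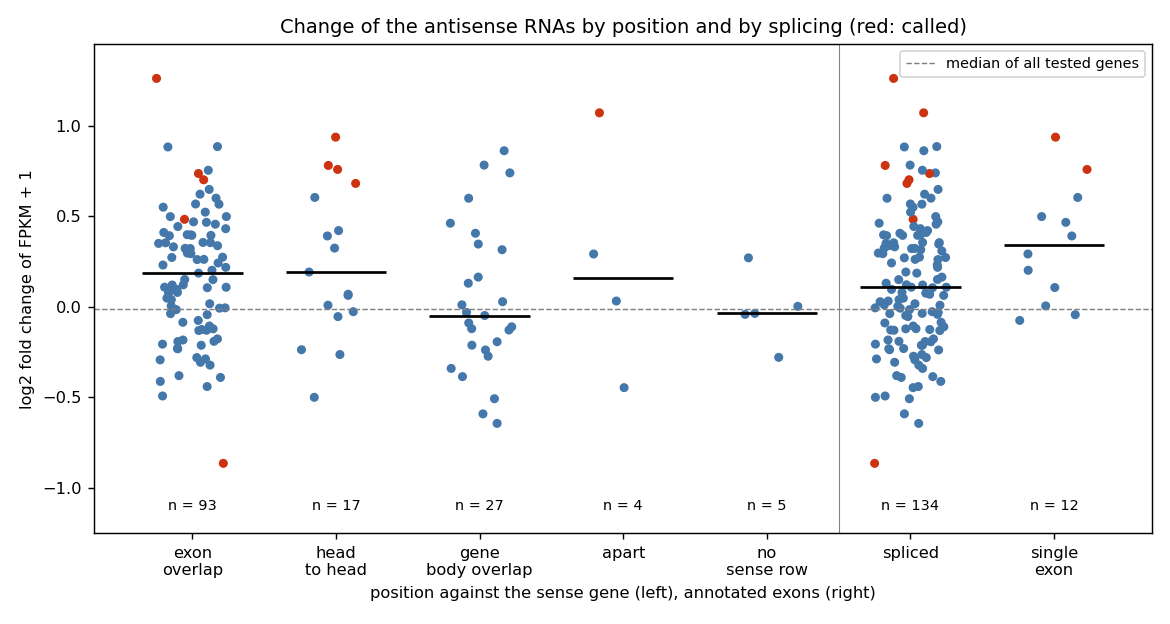
Log2 fold change of FPKM + 1 of each of the 146 antisense RNAs, by position against the sense gene (left) and by annotated exons (right), with called members in red, class medians as black bars and the median of all tested genes dashed. Head-to-head and exon-overlapping members have medians of 0.19, the other members inside or across the gene body -0.05, and single-exon members 0.34.

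By position, 27 members crossed the gene body of their sense gene without sharing an exon base, and none of them was called (median -0.05; 3 higher and 3 lower with the block). With the block, 30 of the 93 exon-overlapping members were called higher and 6 lower, and 5 and 2 of the 17 head to head. Of the 12 members with a single exon, which have no junction for the complex, 2 rose, with a median of 0.34, and of the 134 spliced members 7 rose and 1 fell, with a median of 0.11. With the block the counts were 5 higher and 0 lower of 12, and 35 and 12 of 134. By level, 3 of the 21 members at 5 FPKM or more rose (median 0.41), against 6 of the other 125, of which 1 fell (median 0.10). The differences between these classes were not tested.

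Of 893 other long non-coding genes tested, 50 were called higher and 13 lower, 5.60% and 1.46%, with a median of 0.09. Of 10439 protein-coding genes, 2.08% were called higher and 3.70% lower (median -0.03). The members were not tested against either class. Of 671 named antisense rows with a mean above 0 and under 1 FPKM, 354 (52.8%) had the higher mean in siRBM8A. Of the 375 of these with at least 0.1 FPKM, limma over 21684 genes called 0 higher and 1 lower, where 1.91% of all genes were called.

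The other 3 members at 10 FPKM or more did not pass the test. HOXB-AS3, from the HOXB cluster and known to encode a short peptide, read 15.7, 18.2 and 19.0 FPKM in siNC and 13.2, 13.5 and 16.3 in siRBM8A. Its groups overlapped (-0.28, adjusted p = 0.207; 0.0177 with the block). VPS9D1-AS1 was at 11.3 ± 1.15 and 17.5 ± 3.99 FPKM, with every siRBM8A library higher (0.57, adjusted p = 0.0911; 0.00590 with the block). FGD5-AS1 read 16.7, 12.2 and 14.3 against 13.6, 8.58 and 10.6, overlapping (-0.38, adjusted p = 0.242; 0.00702 with the block), while its sense gene FGD5 was listed at 0 in all 6 libraries.

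Of members not called, MID1IP1-AS1, ASMTL-AS1, HIF1A-AS2 and FOCAD-AS1 had the highest log2 fold changes. MID1IP1-AS1 read 1.28, 1.83 and 2.23 FPKM in siNC and 2.98, 4.43 and 5.07 in siRBM8A, without overlap (0.88, adjusted p = 0.0528; 0.00213 with the block). MID1IP1, a regulator of fatty acid synthesis, rose 1.74-fold beside it (0.75, adjusted p = 0.0409), and 40.2% of the antisense exon bases lie opposite exons. ASMTL-AS1 was at 5.34 ± 1.46 and 10.6 ± 2.00 FPKM (0.88, adjusted p = 0.0511; 0.00691 with the block) and lies in the region that the X and Y chromosomes share, so its reads may map to either. FOCAD-AS1 read 0.284, 0.741 and 0.283 in siNC and 0.278, 3.21 and 1.71 in siRBM8A, so a single siRBM8A library stayed at the control level (0.78, adjusted p = 0.283). FOCAD-AS1 rested on 9 and 35 fragments, and MID1IP1-AS1 on 33 and 75.

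The member listed as HIF1A-AS2, whose identifier now carries the symbol HIF1A-AS3, read 0.677, 2.35 and 0.673 FPKM in siNC and 3.42, 2.43 and 2.72 in siRBM8A. It rested on 32 fragments in siNC and 74 in siRBM8A. The highest siNC library came close to the lowest siRBM8A one (0.86, adjusted p = 0.121, and 0.0572 with the block). HIF1A, the hypoxia-inducible transcription factor, read 48.1, 36.6 and 45.9 against 28.9, 19.7 and 26.8, with no overlap. HIF1A narrowly missed the threshold and was not called without the block (-0.78, adjusted p = 0.0515, and 0.00149 with the block). At the other end, LAMC1-AS1 (-0.64), DLGAP1-AS2 (-0.59), TRAPPC12-AS1 (-0.51) and OTUD6B-AS1 (-0.50) had the lowest values not called, with adjusted p from 0.143 to 0.195 (0.00801 to 0.112 with the block). DLGAP1-AS2 was at 3.50 ± 0.894 and 2.04 ± 0.893 FPKM, whereas DLGAP1, a postsynaptic scaffold protein, was at 0.0428 FPKM.

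Sense genes were found in the table for 141 members, 138 distinct genes, of which 137 are protein coding. The sense gene was usually the more abundant of the pair: the antisense RNA was the higher in 38 of the 141 pairs. Over the 116 pairs with both genes tested, which leaves out sense genes under 1 FPKM, it was higher in 13 and the median ratio of sense to antisense FPKM was 5.43. Of the 114 sense genes tested, 6 rose and 5 fell, against 2.41% and 3.19% of all genes, with a median of 0.04. With the block 27 were called higher and 24 lower, against 18.9% and 21.3% of all genes. GAS5, a host of small nucleolar RNAs and the only non-coding one, rose from 50.8 ± 3.67 to 103 ± 2.30 FPKM (adjusted p = 0.00918), while GAS5-AS1 was at 1.08 ± 0.465 and 1.36 ± 0.290. ABHD11, a mitochondrial hydrolase, MID1IP1, NOP14 and NOP53, both ribosome assembly factors, and TONSL, a replication fork repair factor, were the others that rose. DGUOK, a mitochondrial deoxyguanosine kinase, GATA6, a transcription factor of gut epithelium, SOCS2, a suppressor of cytokine signalling, IGFL2 and GPR50 fell. Without siNC replicate 1, siNC replicate 3 or siRBM8A replicate 3 no sense gene was called, and without siNC replicate 2 only 1 was.

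**Figure D4:**
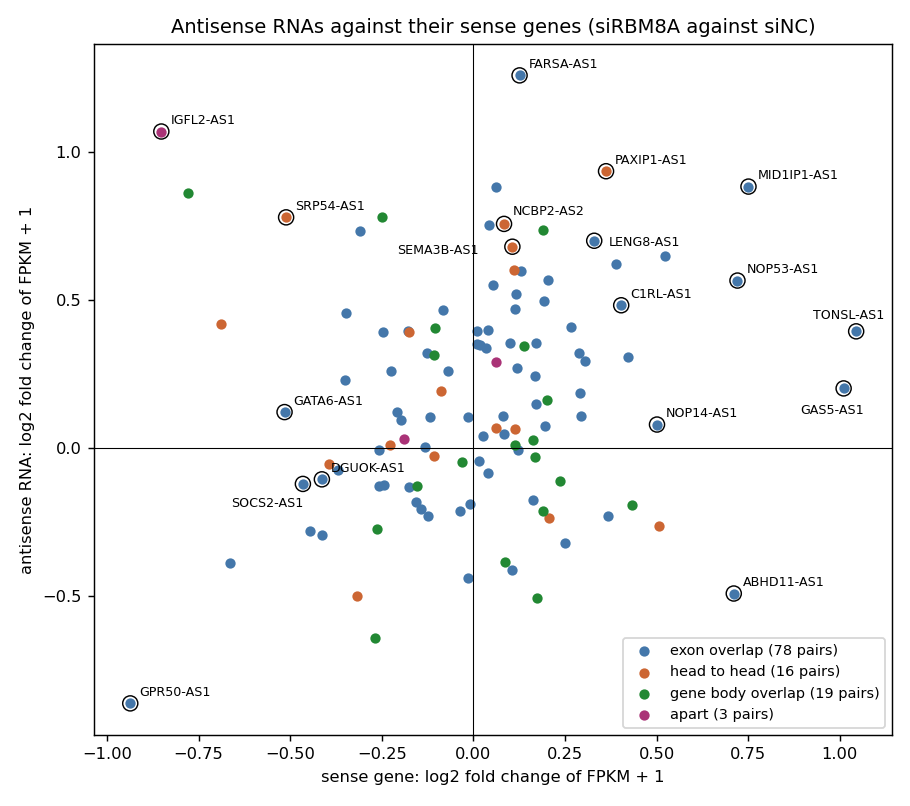
Log2 fold change of FPKM + 1 of the sense gene (x) and of its antisense RNA (y) for the 116 pairs with both tested, coloured by position, with pairs ringed and named where either gene was called, other than 1 pair. Pairs lie on both sides of 0 on both axes, with GPR50-AS1 low on both axes and IGFL2-AS1 high against a lower IGFL2.

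The log2 fold changes of a member and its sense gene are set side by side for the 116 pairs. Both lay above 0 in 50 pairs and below in 24, the antisense RNA alone was above in 26 and the sense gene alone in 16. Both genes were called in 2 pairs, IGFL2-AS1 with IGFL2, in opposite directions, and GPR50-AS1 with GPR50, in the same one. Across pairs the Pearson correlation of the log2 fold changes was 0.147 (Spearman 0.177). It was 0.384 over the 78 exon-overlapping pairs and 0.00340 over the 16 head to head. Genes are not independent replicates, all pairs share the same 6 libraries, and exon-overlapping pairs may also share reads.

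**Figure D5:**
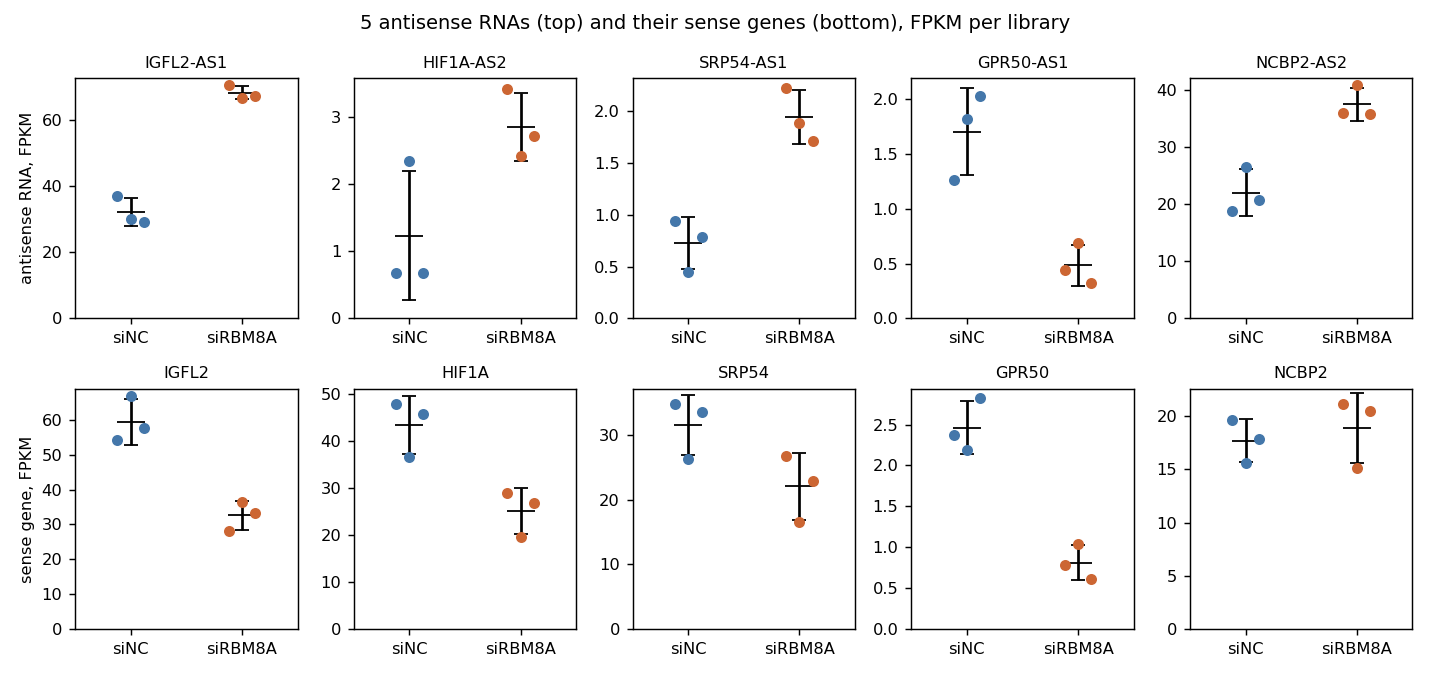
FPKM in each library of 5 antisense RNAs (top) and their sense genes (bottom), siNC in blue and siRBM8A in orange, mean and SD (n = 3) in black, each axis from 0. IGFL2 is lower in siRBM8A, where IGFL2-AS1 is higher. HIF1A is also lower and HIF1A-AS2 higher, but neither was called without the block. GPR50 is low with GPR50-AS1, and SRP54 and NCBP2 overlap between groups.

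The log2 ratio of antisense to sense FPKM, with 1 added to each, was compared between groups for 20 named pairs. In 11 of them the groups did not overlap, which gives p = 0.1 by a two-sided exact permutation test, the smallest that 3 libraries against 3 allow, and 0.182 after adjustment over the 20. The log2 ratio of IGFL2-AS1 to IGFL2 differed by 1.92 (-0.87 ± 0.31 in siNC and 1.05 ± 0.22 in siRBM8A). The difference was 1.64 for HIF1A-AS2, 1.29 for SRP54-AS1 and 1.13 for FARSA-AS1. With 0.1 added in place of 1 these were 1.96, 2.16, 1.88 and 2.07, so the order of the pairs depended on what was added. For GPR50-AS1, which fell with its sense gene, it was 0.07 (exact permutation p = 0.7). TRAPPC12-AS1 and DLGAP1-AS2, among the pairs without overlap, had lower ratios in siRBM8A, with differences of -0.68 and -0.60. DLGAP1 was at a mean of 0.0428 FPKM, so with 1 added its ratio follows DLGAP1-AS2 almost alone. All pairs but those of VPS9D1-AS1 and FGD5-AS1 were chosen for the antisense change, which enters the ratio. That choice favours separated groups, so the count of pairs without overlap is a description only.

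Genes of RNA decay that act on such transcripts in the nucleus showed no call without the block. Of 19 tested from the nuclear exosome, its adaptors and XRN2, none passed by limma and 5 had an unadjusted p under 0.05, with a median of -0.01. Over all tested genes 5.59% passed and 26.3% had an unadjusted p under 0.05, so these unpaired counts were near the background. With the block, 4 of the 19 were higher and 7 lower, against 18.9% and 21.3% of all genes. The share lower was thus above that of all genes, a difference that was not tested. EXOSC10, the nuclear exonuclease of the exosome, was at 13.0 ± 0.357 and 9.63 ± 0.627 FPKM (adjusted p = 0.0558; 0.00536 with the block), and EXOSC2, a cap subunit, at 12.6 ± 0.606 and 16.5 ± 0.238 (adjusted p = 0.0575; 0.00598 with the block). Of the 5 core genes of the exon junction complex, RBM8A alone was called without the block, and CASC3 was also lower with it (-0.38, adjusted p = 0.0712 and 0.00762).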

How the data were processed

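Deposited values were FPKM per gene for 6 AGS libraries. The authors' FPKM came from HISAT2 alignment to GRCh38 and StringTie, per the submitters' processing notes, with versions and strand use not stated there. Members, gene lists and comparisons were chosen with earlier results of these data known. The named genes were every called member but 1, which is not reported here, the 5 with the highest mean FPKM and, of those not called, the 4 highest and 4 lowest log2 fold changes, with their sense genes. Sense genes named only for their own call, and the genes of the rule's edge, were named after their values were seen.

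The 12678 genes at 1 FPKM or more, averaged over all libraries, were tested as log2(FPKM + 1) with limma 3.58.1 (R 4.3.3), variance trend, two-sided, siRBM8A against siNC, Benjamini-Hochberg adjustment over all of them and a threshold of 0.05. GENCODE 29 gave positions and exon lengths for all 58735 gene identifiers. FPKM times exon length gave whole fragments for 100% of values above 0 (tolerance 0.001 fragments), which supplied depth. Same-numbered libraries of the 2 groups had correlated deviations (r = 0.507, 0.663 and 0.102 over 12678 genes), all over 0.1, so replicate number was also fitted as a block. The pairing comes from the data and the shared numbers in the labels. It is weakest for number 3, since siNC replicate 3 with siRBM8A replicate 1 (0.258) and siNC replicate 1 with siRBM8A replicate 3 (0.187) correlated more. Alternatives were other pseudocounts, filters, scalings, no trend, limma-voom on the fragments, a GC correction (loess, span 0.3) and each library left out; those without both replicates 2 and with other ratio pseudocounts were added after seeing the data.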

Additional observations from a re-analysis of the deposited data

How the results depend on the processing

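Pseudocounts of 0.1 and 0.5, both scalings and the fit with no variance trend kept at least 9 of the 10 called members (SRP54-AS1 was lost with pseudocount 0.1, and limma-voom lost SEMA3B-AS1). Fewer members passed with lower filters, which test more genes: 5 higher and 0 lower at 0.1 FPKM, and 3 and 0 with none. More passed with equal FPKM sums (15 higher), limma-voom (15), the replicate block (40 and 12), the block with limma-voom (46 and 12), the GC correction (31 and 5), that with the block (35 and 12) and without both replicates 2 (16 higher). Leaving out 1 library gave 0 to 8 higher and 0 to 1 lower. Of members at 1 FPKM in each group, 7 were higher and 0 lower, and of those sharing no opposite exon base 4 rose and 0 fell. Their median (log2 fold change of the antisense RNAs) was 0.113 to 0.150 with 1 library left out, 0.175 with pseudocount 0.1, 0.213 with limma-voom, with or without the block, and 0.0316 without exon sharing. For sense genes the counts higher and lower were 2 and 3 at 0.1 FPKM, 2 and 0 with no filter, 6 and 3 with equal sums, 27 and 24 with the block, 38 and 29 with limma-voom and the block, 22 and 23 with the GC correction, 25 and 24 with that and the block, 0 to 4 and 0 to 4 with 1 library left out, and 9 lower without both replicates 2. For the median log2 fold change of the sense genes, values were -0.0167 to 0.0640 with 1 library left out. Over all genes the counts were 189 and 225 at 0.1 FPKM, 119 and 149 with no filter, 468 and 325 with equal sums, 558 and 457 with limma-voom, 2392 and 2704 with the block, 3211 and 2931 with limma-voom and the block, 1993 and 2058 with the GC correction, 2528 and 2627 with that and the block, 2 to 259 and 0 to 369 with 1 library left out, and 823 and 1004 without both replicates 2. The RBM8A transcript level had a log2 fold change of -2.05 to -1.83 with 1 library left out and missed the threshold without siRBM8A replicate 3 (-2.05, adjusted p = 0.0544). Signs reversed for uncalled sense genes near 0: ASMTL (-0.0697 with the GC correction, with or without the block, -0.0373 without both replicates 2, -0.131 to 0.195 with 1 library left out), FARSA (-0.0457 to 0.284 with 1 library left out), SEMA3B (-0.0527 with the GC correction, -0.0718 to 0.227 with 1 library left out), and for the ratio of GPR50-AS1 to GPR50 (-0.144 with pseudocount 0.1). The cause was not tested. Depth limits members of few fragments most.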
